A study of Mus musculus with 8 samples.

Results

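The 80S ribosome of the cytoplasm is built from ribosomal RNA and a fixed set of proteins, named Rpl for the large subunit and Rps for the small one. The genes of these proteins were taken here as the protein-coding genes of the GENCODE M21 annotation whose symbols start with Rpl or Rps and a digit, or with Rplp or Rpsa. Kinases of the Rps6k family and Rps19bp1 were left out. This rule found 91 of the 55487 genes in the files, 57 of the large and 34 of the small subunit, spread over 20 chromosomes with at most 14 on one. The symbols of 6 of them carry the "-ps" of a pseudogene (Rpl10-ps3, Rpl36-ps4, Rpl36a-ps1, Rpl9-ps1, Rpl9-ps6 and Rps12-ps3), although the annotation classes them as coding.

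The study holds 8 RNA libraries, 1 per mouse, of which 4 belong to the tacrolimus group and 4 to the vehicle group. The mice were C57BL/6 and carried subcutaneous tumors grown from B16F10, a pigmented mouse melanoma line. Tacrolimus (FK506) was injected intraperitoneally at 3 mg/kg every 5 days, and per the sample labels the other mice received vehicle on the same schedule. The design text of the series calls those mice untreated, and they are named here as the labels name them. Dosing began 7 to 9 days after tumor cell injection, at a volume near 50 mm3, and the tumors were harvested 6 days into treatment. The RNA was that of cells sorted by flow cytometry as CD8+ tumor-infiltrating lymphocytes. The series asks how intermittent tacrolimus acts on immunity to the tumor.

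Ribosomal protein genes are among the most strongly transcribed genes of growing cells, and most of their products are needed in equal amounts, since a ribosome holds a single copy of most of them. Their mRNAs begin with a run of pyrimidines, the 5′ TOP motif, through which the kinase mTOR and the RNA-binding protein Larp1 control their translation. When a naive CD8+ T cell is activated it makes ribosomes at a high rate, driven by mTOR and Myc. Tacrolimus binds the same immunophilin, FKBP12, as the mTOR inhibitor rapamycin, but the complex it forms inhibits calcineurin. RNA levels do not measure how well an mRNA is translated.

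Values are in FPKM, a fragment count divided by transcript length and by library depth. Tacrolimus replicate 3 held an estimated 19800000 fragments, and the other libraries 15850000 to 17100000. The 8 melanoma markers averaged 9.24 to 9.59 on the log2(FPKM + 1) scale in tacrolimus libraries and 9.02 to 9.83 in vehicle libraries. The 10 T cell markers averaged 2.33 to 4.97 in tacrolimus libraries and 4.92 to 6.93 in vehicle libraries. All 10 T cell markers had a lower mean in the tacrolimus group, with a median log2 difference of −1.86, and no marker was at 0 in every library. Melanoma markers thus averaged above T cell markers in every library, and a level given below cannot be assigned to T cells. In bulk RNA, fewer cells of a type and less RNA per cell cannot be told apart. The 9 macrophage and monocyte markers averaged 4.31 to 5.38 in tacrolimus libraries and 4.96 to 6.57 in vehicle libraries. All 9 also had a lower mean in the tacrolimus group, with a median log2 difference of −1.06. Over all 13032 genes tested, 9866 had a lower mean in that group and 3166 a higher one. The fibroblast and endothelial markers averaged 2.15 to 2.53 in tacrolimus libraries and 2.20 to 2.88 in vehicle libraries. The part of these cell type markers in the ribosomal protein values was not tested.

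The ribosomal protein genes took a similar share of the summed FPKM in both groups. The comparison depends on the total used, and another total is given below. Their values summed to 4.57%, 5.03%, 6.10% and 5.55% of the FPKM of tacrolimus replicates 1 to 4, against 5.83%, 5.63%, 5.52% and 4.02% in vehicle replicates 1 to 4. The mean share was 5.31 ± 0.660% in tacrolimus libraries and 5.25 ± 0.831% in vehicle libraries (SD, n = 4 each). The groups overlapped, with the highest share in tacrolimus replicate 3 and the lowest in vehicle replicate 4. Without vehicle replicate 4 the tacrolimus mean was lower than the vehicle mean by a difference of −0.348 percentage points, against 0.0628 with it. The subunits stayed in one proportion: the summed FPKM of large-subunit genes was 1.26 ± 0.0190 times that of small-subunit genes in tacrolimus libraries and 1.27 ± 0.0432 times in vehicle libraries.

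Of the 91 genes, 86 passed the filter of 1 FPKM in at least 4 libraries. Rpl10l, Rpl36-ps4 and Rpl9-ps1 were listed at 0 in all 8 libraries. Rpl10l is an autosomal retrogene used in the testis in place of X-linked Rpl10. Rpl39l, a testis paralog of Rpl39, ranged from 0 to 1.38 FPKM in tacrolimus libraries and from 0.21 to 1.77 in vehicle libraries. Rpl3l, the paralog of Rpl3 in striated muscle, ranged from 0.08 to 0.57 FPKM in tacrolimus libraries and from 0 to 0.67 in vehicle libraries. The tissue-restricted paralogs were therefore at or near 0 beside their widely used counterparts.

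The tested genes were abundant. Their median level, as a mean over 8 libraries, was 464 FPKM, against 11.1 FPKM for all 13032 genes tested. The level exceeded 1000 FPKM for 12 genes, lay between 200 and 1000 for 62, and was under 200 for 12. Among the most abundant was Rpl32, a large-subunit gene, which had 1283, 1438, 1851 and 1589 FPKM in tacrolimus replicates 1 to 4 and 1505, 1671, 1609 and 1085 FPKM in vehicle replicates 1 to 4. Vehicle replicate 4 was the lowest of the 8 libraries, and the groups overlapped. Over all 8 libraries Rpl32 averaged 1504 FPKM, Rpl41 1498, the stalk gene Rplp1 1464, and the small-subunit genes Rps18 1404 and Rps29 1344. Rpl41 encodes the shortest protein of the ribosome.

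The start of these genes can be read from the RefSeq promoter windows (build GRCm38.p6), which matched 65 of the 91 genes by symbol and run from 250 bases before to 50 bases after the annotated start. The 5 windows below show 60 bases before and 30 after the start for genes on which later results turn: a paralog pair (Rps27 and Rps27l), a paralog with a start of another kind (Rpl22l1), the gene with the lowest difference between groups (Rpl7l1) and the stalk gene next to it (Rplp0). They are written 5′ to 3′ on the strand of the gene, and capitals mark the letters of 4 searched motifs.
Rps27, chr3:90213619-90213708, minus strand: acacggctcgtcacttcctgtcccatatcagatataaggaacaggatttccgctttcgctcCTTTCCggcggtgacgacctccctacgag
Rps27l, chr9:66946026-66946115, plus strand: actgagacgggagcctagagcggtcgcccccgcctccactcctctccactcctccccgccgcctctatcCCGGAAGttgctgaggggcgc
Rpl22l1, chr3:28805448-28805537, plus strand: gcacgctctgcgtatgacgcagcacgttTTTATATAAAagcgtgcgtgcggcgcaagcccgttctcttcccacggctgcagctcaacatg
Rpl7l1, chr17:46782627-46782716, minus strand: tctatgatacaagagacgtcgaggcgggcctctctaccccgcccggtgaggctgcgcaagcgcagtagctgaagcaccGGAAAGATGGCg
Rplp0, chr5:115559407-115559496, plus strand: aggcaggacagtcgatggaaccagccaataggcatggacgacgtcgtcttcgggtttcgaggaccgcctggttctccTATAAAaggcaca

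In the Rps27 window the letters CTTTCC stand just after the annotated start, inside a pyrimidine stretch. The printed Rps27l window has CCGGAAG, the core letters of an ETS factor motif, a little farther downstream. Around another annotated start of Rps27l, not printed, none of the searched motifs was found. Rpl22l1 has TATAAA on both strands, as overlapping matches upstream of the start, and Rplp0 has TATAAA downstream of it. In Rpl7l1 the capitals join AAGATGGC, the letters of a YY1 motif, with an overlapping CTTTCC on the other strand. Over whole windows and both strands, CTTTCC was found in 53.8% of the 65 matched genes and in 29.3% of all 27025 genes with a window. CCGGAAG was found in 40% of the matched genes and 9.93% of all. AAGATGGC was found in 9.23% of the matched genes and 3.19% of all, and TATAAA in 10.8% of the matched genes and 15.7% of all. These are letter matches, not tested sites. The 27025 genes were not limited to those expressed here, so these shares do not show a trait particular to ribosomal protein genes.

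Many of these genes have near-identical processed copies elsewhere in the genome, so reads can be split between a gene and its copies. Transcripts that matched a coding sequence at 95% identity or more over at least 80% of its length were found for 79 of the 86 tested genes, with up to 57 for Rpl21. For 58 tested genes the copies summed to under 5% of the level of the gene, for 14 to between 5 and 100%, and for 14 to more than the gene itself. Of these 14, 9 are ordinary spliced genes, whose levels are therefore uncertain: Rpl12, Rpl27a, Rpl5, Rps16, Rps12, Rps13, Rps23, Rpl31 and Rpl27. Their mean levels ran from 23.7 to 425 FPKM alone, with a median of 186, and from 330 to 973 FPKM with their copies, with a median of 647.

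Rpl12, part of the base of the stalk, shows the largest such gap. The gene itself (chr2:32961559-32965345, plus strand) had 23.5, 14.5, 23.1 and 30.3 FPKM in tacrolimus replicates 1 to 4 and 30.8, 25.6, 22.7 and 18.9 FPKM in vehicle replicates 1 to 4. Its copy Gm10275, a transcribed processed pseudogene (chr10:29698746-29699380, minus strand), had 533, 606, 738 and 643 FPKM in tacrolimus replicates 1 to 4 and 714, 660, 602 and 480 FPKM in vehicle replicates 1 to 4. The copy lay far above the gene in every library, at a level usual for the family. Rpl5 binds 5S ribosomal RNA together with Rpl11 and, with it, the p53 regulator Mdm2. Rpl5 averaged 113 FPKM over 8 libraries, against 354 FPKM for its copy Gm15500. Alone it lay below its partner Rpl11, at 264 FPKM. With copies added, the Rpl5 sum was 467 FPKM. The pseudogenes named as ribosomal proteins, 301 in all and 35 of them tested, took 0.316 ± 0.0402% of the FPKM in tacrolimus libraries and 0.310 ± 0.0543% in vehicle libraries (SD, n = 4 each). This share leaves out copies with symbols of another kind, such as Gm10275 and Gm15500, so it is not the share of all copies.

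**Figure D1:**
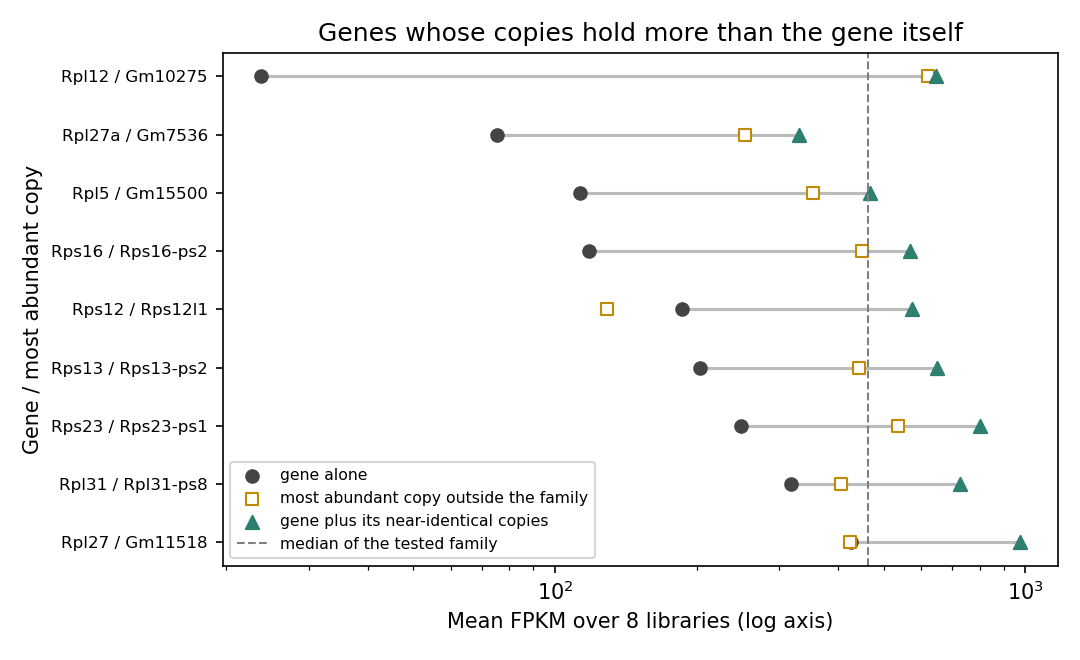
Mean FPKM over 8 libraries (log axis) of the 9 spliced ribosomal protein genes whose near-identical copies sum to more than the gene. Circles are the gene alone, squares the most abundant copy outside the family, triangles the gene plus all its copies, and the dashed line the family median of 464 FPKM. Rpl12 moves the farthest, to 647 FPKM with its copies against 23.7 alone. For Rps12 the most abundant copy, Rps12-ps3, is itself in the family and is not drawn as a square.

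No ribosomal protein gene passed the test between tacrolimus and vehicle. Of the 86 tested, 0 had a limma adjusted p under 0.05, as did 0% of all genes, and 0 had an unadjusted p under 0.05, with the smallest adjusted p at 0.359. Over all genes the smallest limma adjusted p was 0.139, and at the unadjusted threshold 1.6% of the 13032 genes were higher in the tacrolimus group and 15.8% lower. The tacrolimus and vehicle values overlapped for each of the 86 genes, while over all genes 0.767% were higher without overlap and 10.2% lower. The mean was higher in the tacrolimus group for 55 ribosomal protein genes and lower for 31. The difference lay within 0.1 on the log2(FPKM + 1) scale for 55 genes and within 0.2 for 80, beside a median standard error of 0.17.

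The family therefore sat above the bulk of genes in this comparison. Its median log2 difference, tacrolimus minus vehicle, was 0.03 (quartiles −0.04 and 0.08), against −0.19 for all genes tested. Large-subunit genes had a median of 0.02 and small-subunit genes of 0.04. This position was not particular to the family. Nuclear oxidative phosphorylation subunits, with a median of 0.09, and mitochondrial ribosomal protein genes, with −0.05, also sat above all genes. Relative to all genes the family median was higher by 0.23, and by 0.23 to 0.25 under 5 other scalings. A scaling shifts all genes of a library by nearly the same amount, so it could hardly change this gap. These are descriptions of the lists, with no test of their difference. The family's position depends on which libraries are used: without vehicle replicate 4 its median was −0.10, with 8 genes higher and 78 lower, against −0.19 for all genes. Without tacrolimus replicate 3 its median was −0.04, with 26 genes higher and 60 lower, against −0.16 for all genes.

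**Figure D2:**
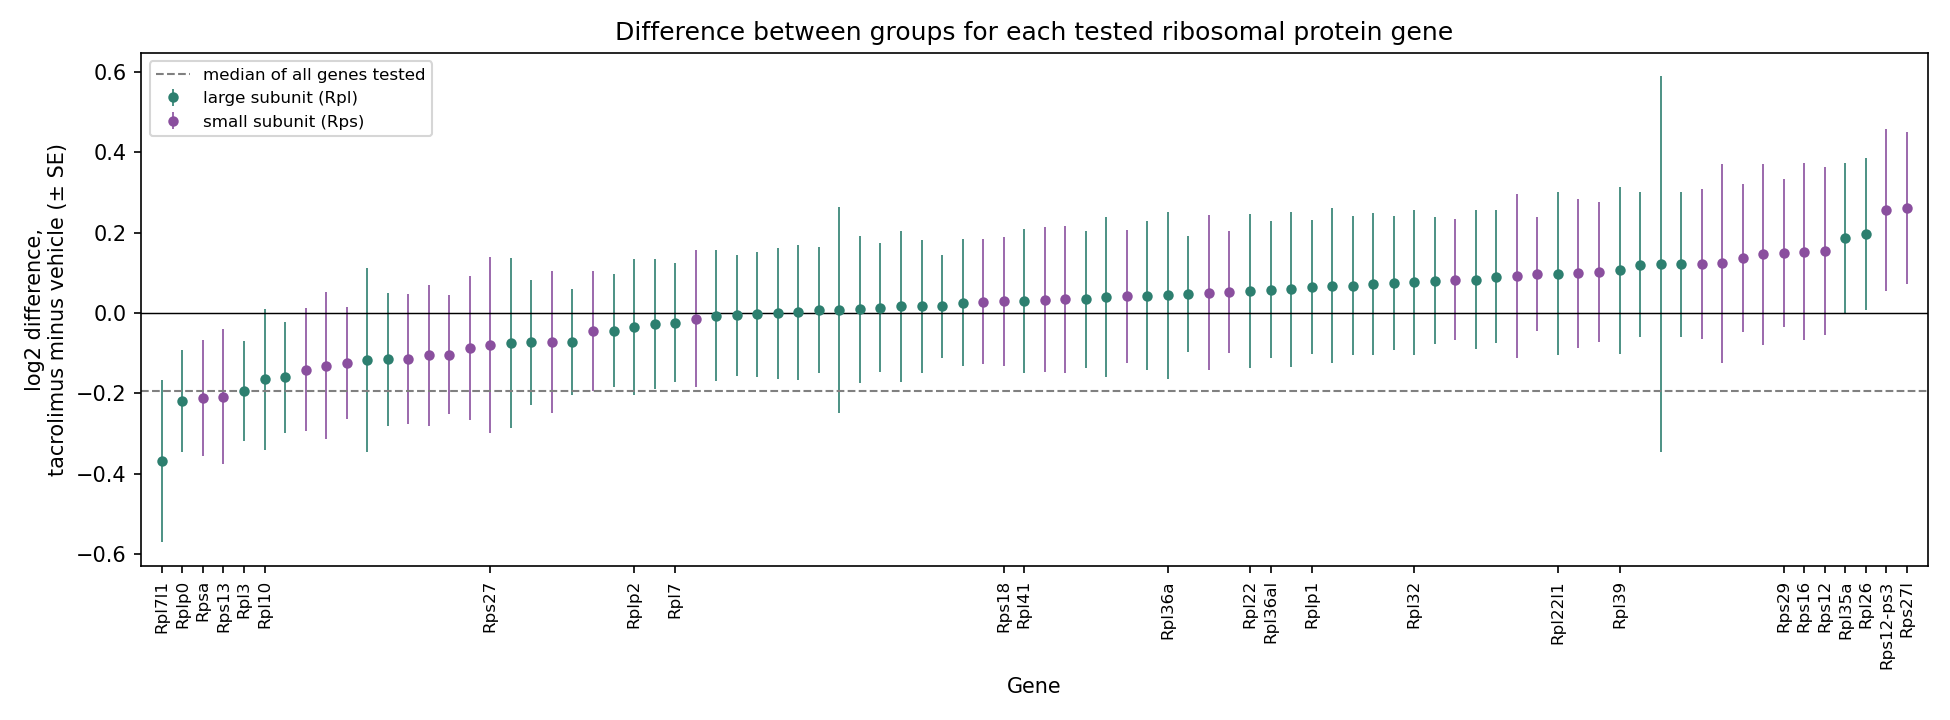
Difference in log2(FPKM + 1), tacrolimus minus vehicle, of the 86 tested ribosomal protein genes in rising order, with bars of 1 standard error and names under part of the genes described in the text. Green marks the large and purple the small subunit, and the dashed line marks the median of all genes tested, at −0.19. The genes run from −0.37 for Rpl7l1 to 0.26 for Rps27l, and most bars cross 0.

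The genes moved together from library to library, and 1 library stood apart. Vehicle replicate 4 was the lowest of the 8 libraries for 72 of the 86 genes, and tacrolimus replicate 1 for 10. The median gene lay 0.41 below its own 8-library mean in vehicle replicate 4 on the log2 scale, while the median of all genes tested lay 0.13 above it there. Tacrolimus replicate 3 showed the opposite arrangement, with the ribosomal protein median at 0.20 and the median of all genes at −0.20. In the other 6 libraries the ribosomal protein median lay between −0.18 and 0.17. The highest value of a gene was in tacrolimus replicate 3 for 32 genes, in vehicle replicate 1 for 28 and in vehicle replicate 2 for 23.

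**Figure D3:**
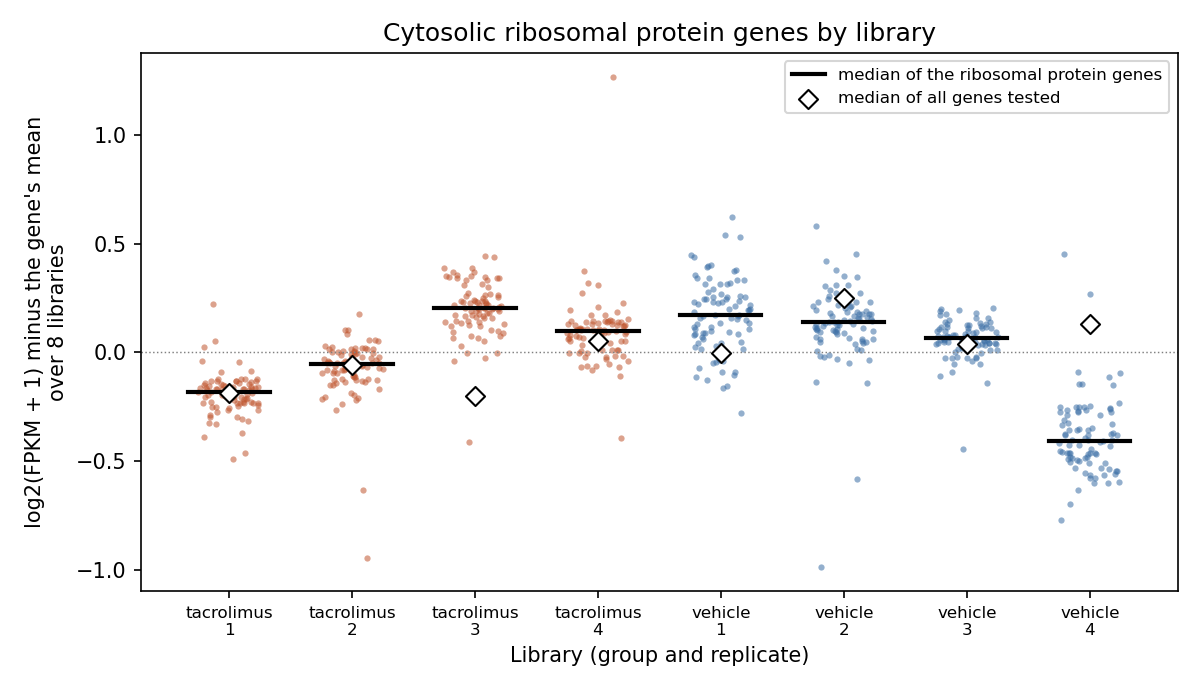
Log2(FPKM + 1) of each tested ribosomal protein gene minus its own mean over 8 libraries, with tacrolimus libraries on the left and vehicle libraries on the right. Points are the 86 genes, bars their median and diamonds the median of all 13032 genes tested. In vehicle replicate 4 the bar is at −0.41 and the diamond at 0.13, and in tacrolimus replicate 3 the bar is at 0.20 and the diamond at −0.20.

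Other features of these libraries moved as well. A single gene, Cmss1, took 12.3% of the FPKM of vehicle replicate 4, against 7.18 to 9.45% in tacrolimus libraries and 5.83 to 8.26% in the other vehicle libraries. Cmss1 averaged 72725 FPKM over 8 libraries, the highest mean of all genes, and which RNA its reads came from was not tested. Mitochondrially encoded genes took 20.4% in tacrolimus replicate 1, against 10.5 to 12.5% in the other tacrolimus libraries and 6.65 to 12.4% in vehicle libraries. With mitochondrial genes, the ribosomal protein genes and all genes over 5000 FPKM left out of the total, the family equalled 8.03%, 7.93%, 9.54% and 8.23% of that total in tacrolimus replicates 1 to 4. On the same basis it equalled 8.52%, 7.72%, 8.27% and 5.99% in vehicle replicates 1 to 4. Vehicle replicate 4 was still the lowest and tacrolimus replicate 3 the highest. On this basis the mean was 8.43 ± 0.751% in tacrolimus libraries and 7.62 ± 1.14% in vehicle libraries (SD, n = 4 each), and the groups overlapped.

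As a description of this shared movement, each gene was correlated with the median of the other members over the 8 libraries. The median Pearson correlation was 0.91, with 46 genes over 0.9 and 5 under 0.5. All points share the same libraries and scaling. The 5 were Rpl7l1 at −0.07, Rpl36a-ps1 at −0.06, Rpl10-ps3 at 0.41, Rps27rt at 0.45 and Rpl9-ps6 at 0.47. Among them, Rpl36a-ps1 and Rpl9-ps6 had mean levels of 1.33 and 6.77 FPKM, while Rps27rt, an intronless copy of Rps27, had 116 FPKM. The median spread within a group was 0.25 on the log2 scale for the family and 0.29 for all genes tested.

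The stalk of the large subunit recruits the GTPases of translation and is made of Rplp0 and dimers of Rplp1 and Rplp2. Rplp0, its base, had 570, 593, 636 and 622 FPKM in tacrolimus replicates 1 to 4 and 703, 795, 729 and 602 FPKM in vehicle replicates 1 to 4. The highest 3 values were vehicle libraries, and vehicle replicate 4 lay among the tacrolimus values. The log2 difference was −0.22 ± 0.13 (SE; limma adjusted p = 0.382). Rplp1 averaged 1493 ± 181 FPKM in tacrolimus libraries and 1436 ± 238 in vehicle libraries, with a log2 difference of 0.07 ± 0.17. Rplp2 averaged 662 ± 94.1 FPKM in tacrolimus libraries and 683 ± 122 in vehicle libraries, with a log2 difference of −0.04 ± 0.17 (SD for means and SE for differences, n = 4 each). The sign for Rplp0 and Rplp2 turned under median-of-ratios and upper-quartile scaling.

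Rpsa, a small-subunit protein also described as a laminin receptor precursor, had 441, 548, 597 and 545 FPKM in tacrolimus replicates 1 to 4. It had 668, 638, 647 and 514 FPKM in vehicle replicates 1 to 4. Again 3 vehicle libraries were above all tacrolimus libraries, and vehicle replicate 4 was not. The log2 difference was −0.21 ± 0.14 (SE; limma adjusted p = 0.447).

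The other genes at the low end were Rpl7l1, Rps13, Rpl3 and Rpl10. Rpl3 lies close to the peptidyl transferase centre and had 505, 544, 583 and 594 FPKM in tacrolimus replicates 1 to 4, against 659, 698, 635 and 559 FPKM in vehicle replicates 1 to 4. Vehicle replicate 4 was the only vehicle library within the tacrolimus range. Its log2 difference was −0.19 ± 0.13 (SE; limma adjusted p = 0.426). Rpl10, which joins the large subunit late, in the cytoplasm, averaged 530 ± 81.7 FPKM in tacrolimus libraries and 597 ± 116 in vehicle libraries (SD, n = 4 each). Rps13, one of the genes with an abundant copy, averaged 189 ± 34.6 FPKM in tacrolimus libraries and 218 ± 31.1 in vehicle libraries, a log2 difference of −0.21 ± 0.17 (SE) alone and −0.056 with its copies added. Its copy Rps13-ps2 averaged 445 ± 57.6 FPKM in tacrolimus libraries and 442 ± 50.8 in vehicle libraries. Single libraries set much of some of these values: without tacrolimus replicate 1 the difference was −0.079 for Rps13 and −0.12 for Rpsa, and without vehicle replicate 2 it was −0.051 for Rpl10 and −0.24 for Rpl7l1. The differences of Rpsa, Rpl3, Rpl10 and Rps13 were above 0 under median-of-ratios and upper-quartile scaling.

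The high end held Rps27l, Rps12-ps3, Rpl26, Rpl35a, Rps12 and Rps16. Rpl26, which lies near the exit of the peptide tunnel, had 646, 730, 923 and 838 FPKM in tacrolimus replicates 1 to 4 and 709, 830, 737 and 486 FPKM in vehicle replicates 1 to 4. Vehicle replicate 4 was the lowest, and the other vehicle libraries lay within the tacrolimus range. Its log2 difference was 0.20 ± 0.19 (SE; limma adjusted p = 0.586). Rpl35a, whose human counterpart is altered in some patients with Diamond-Blackfan anemia, averaged 830 ± 125 FPKM in tacrolimus libraries and 736 ± 151 in vehicle libraries (SD, n = 4 each). Rps12 averaged 195 ± 38.1 FPKM in tacrolimus libraries and 177 ± 47.3 in vehicle libraries, and its near-identical partner Rps12-ps3 averaged 273 ± 31.5 FPKM in tacrolimus libraries and 234 ± 62.6 in vehicle libraries. Rps16, a small-subunit gene, averaged 124 ± 26.9 FPKM in tacrolimus libraries and 113 ± 30.4 in vehicle libraries. Its log2 difference was 0.15 alone and 0.033 with its copies outside the family added. In the same way Rps12 was at 0.16 alone and 0.045 with copies, and Rps12-ps3 at 0.26 alone and 0.13 with copies, so the places of these 3 genes at the high end rest on levels that are uncertain. All 6 differences also rest on vehicle replicate 4. Without it they were 0.13 for Rps27l, 0.067 for Rps12-ps3, 0.038 for Rpl26, 0.025 for Rpl35a, −0.0056 for Rps12 and 0.015 for Rps16.

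Within the family, genes with longer coding sequences tended to lie lower in this comparison. Over the 86 tested genes the Spearman correlation of coding length with the log2 difference was −0.60, and that of mean level with the difference was 0.02. Over 11549 other protein-coding genes the correlation with coding length was −0.01. Tested genes with a coding transcript had a median transcript length of 2873 bases, against 834 in the family. The correlation was not computed within genes of like length or within other families, so it is not shown to be particular to this one. The 43 genes with the longer coding sequences had a median log2 difference of −0.01, and the 43 with the shorter ones of 0.07, around a median coding length of 454.5 bases. Genes are not independent replicates, they share the libraries and the scaling, and no test is given. In single libraries, the correlation of coding length with a gene's deviation from its own mean was −0.17, −0.21, −0.66 and −0.26 in tacrolimus replicates 1 to 4. It was −0.07, 0.37, −0.04 and 0.59 in vehicle replicates 1 to 4. The steepest values were thus in tacrolimus replicate 3 and vehicle replicate 4, the libraries in which the family as a whole stood highest and lowest.

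**Figure D4:**
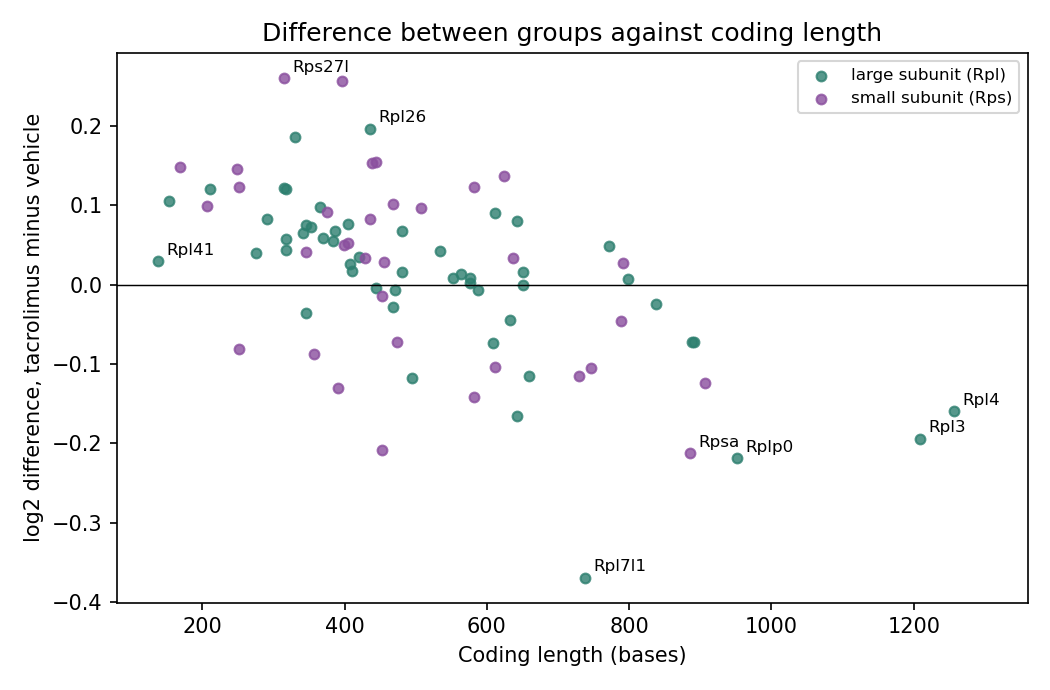
Log2 difference, tacrolimus minus vehicle, against the coding length in bases of the 86 tested ribosomal protein genes, with green for the large and purple for the small subunit. The points fall with length, with a Spearman correlation of −0.60 and wide scatter: the long genes Rpl3, Rpl4, Rplp0 and Rpsa lie between −0.22 and −0.16 but Rpl5, longer than Rpsa, at −0.07, and the short Rps27l lies at 0.26 but the shorter Rps27 at −0.08.

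Mammals keep expressed paralogs of several ribosomal proteins. Only where both proteins of a pair enter the ribosome would exchange between them change which protein it holds. Whether that is so for each pair compared here was not tested. The ratio of FPKM within a library does not depend on scaling and was compared for 4 pairs. Rps27l, a paralog that responds to p53, had 722, 858, 1079 and 996 FPKM in tacrolimus replicates 1 to 4 and 741, 959, 796 and 570 FPKM in vehicle replicates 1 to 4. Rps27 had 888, 894, 1155 and 949 FPKM in tacrolimus replicates 1 to 4 and 1444, 971, 1142 and 679 FPKM in vehicle replicates 1 to 4. Both genes were lowest in vehicle replicate 4, and Rps27 was highest in vehicle replicate 1. On its own, Rps27l had the largest positive log2 difference of the family, 0.26 ± 0.19 (SE; limma adjusted p = 0.474). The log2 ratio of Rps27l to Rps27 was −0.10 ± 0.15 in tacrolimus libraries and −0.44 ± 0.41 in vehicle libraries (SD, n = 4 each). The difference of 0.34 had an exact two-sided permutation p of 0.2, or 0.571 adjusted over the 4 pairs, where the smallest possible p is 0.0286. Vehicle replicate 1, at −0.96, set much of the vehicle spread, and without it the difference was 0.17.

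Rpl7l1 (chr17:46773907-46782672, minus strand) is the gene whose log2 difference was lowest, at −0.37 ± 0.20 (SE; limma adjusted p = 0.359). It had 33.6, 52.8, 34.8 and 45.4 FPKM in tacrolimus replicates 1 to 4 and 41.5, 70.3, 48.5 and 56.4 FPKM in vehicle replicates 1 to 4. The groups overlapped, and vehicle replicate 4, low for most of the family, was here above all 4 tacrolimus libraries, as was vehicle replicate 2. Rpl7, its abundant paralog, averaged 431 ± 42.7 FPKM in tacrolimus libraries and 440 ± 68.2 in vehicle libraries. The log2 ratio of Rpl7l1 to Rpl7 was −3.39 ± 0.36 in tacrolimus libraries and −3.04 ± 0.44 in vehicle libraries (SD, n = 4 each). The difference of −0.35 had an exact two-sided permutation p of 0.286, or 0.571 adjusted over the 4 pairs.

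Rpl22 is required in mice for the development of alpha-beta T cells, and Rpl22l1 is its paralog. Rpl22 averaged 190 ± 38.7 FPKM in tacrolimus libraries and 183 ± 39.2 in vehicle libraries. Rpl22l1 averaged 189 ± 32.2 FPKM in tacrolimus libraries and 179 ± 48.6 in vehicle libraries, so the paralogs were at nearly the same level. Their log2 ratio was −0.00 ± 0.16 in tacrolimus libraries and −0.05 ± 0.09 in vehicle libraries, a difference of 0.04 (exact two-sided permutation p = 0.714, adjusted 0.952). For the pair of autosomal Rpl36al and X-linked Rpl36a, the autosomal gene was the more abundant. Rpl36al averaged 679 ± 82.4 FPKM in tacrolimus libraries and 659 ± 138 in vehicle libraries, and Rpl36a averaged 174 ± 29.5 FPKM in tacrolimus libraries and 172 ± 43.6 in vehicle libraries. The log2 ratio was 1.97 ± 0.17 in tacrolimus libraries and 1.96 ± 0.35 in vehicle libraries, a difference of 0.01 (exact two-sided permutation p = 1, adjusted 1). With 4 libraries a group, a p that misses the threshold does not show that the ratios are equal.

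**Figure D5:**
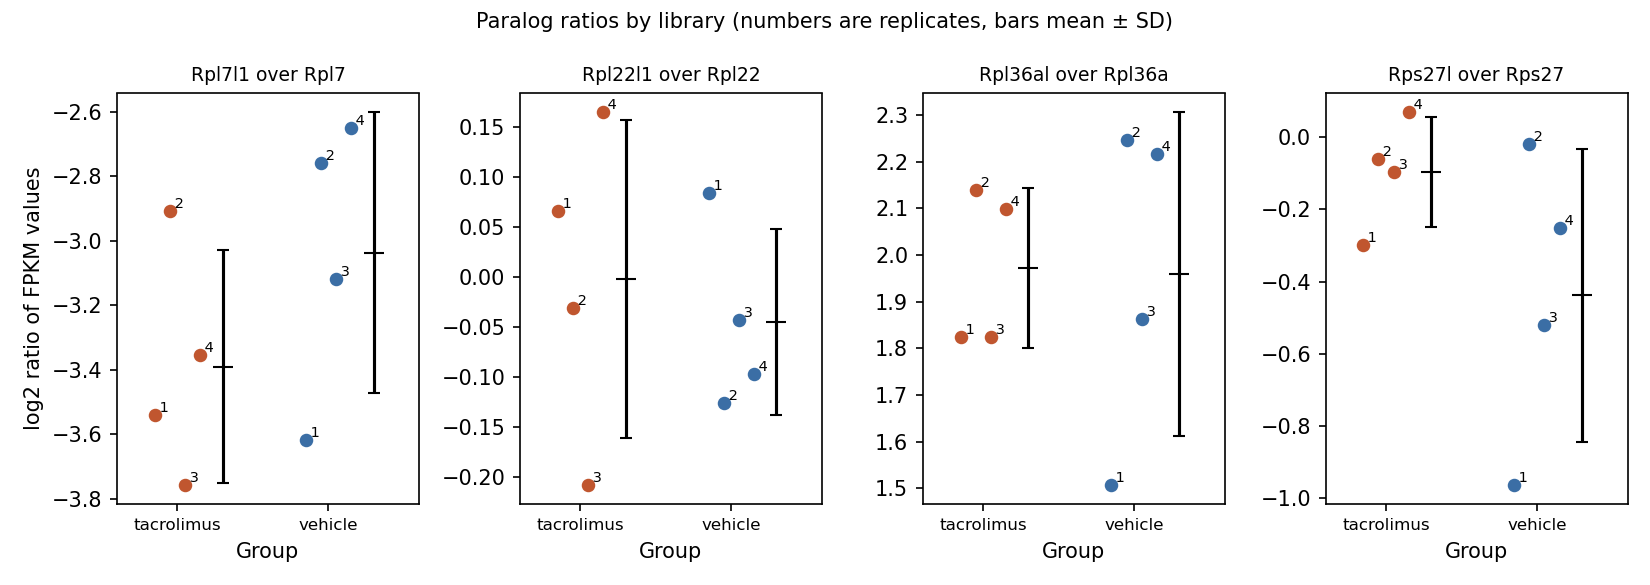
Log2 ratio of the FPKM of 4 paralogs to that of their counterparts in each library, with tacrolimus left of vehicle in each panel. Numbers are replicates, and bars are the mean ± SD of 4 libraries. Groups overlap in all 4 panels, and vehicle replicate 1 is the lowest of the vehicle libraries in 3 of them.

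Ribosomal proteins whose symbols do not follow the family's pattern gave similar values. Fau, which encodes a fusion with small-subunit protein eS30, averaged 337 ± 45.6 FPKM in tacrolimus libraries and 345 ± 54.8 in vehicle libraries. Rack1, a scaffold on the small subunit, averaged 636 ± 36.9 FPKM in tacrolimus libraries and 674 ± 67.4 in vehicle libraries (SD, n = 4 each). Their log2 differences were −0.03 for Fau and −0.08 for Rack1.

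The lists of genes that act with the ribosome had medians close to that of all genes. Of 13 tested elongation and termination factors, 3 had a higher mean in the tacrolimus group and 10 a lower one, with a median log2 difference of −0.19. Eef2, which moves the ribosome along the mRNA, had 236, 241, 224 and 249 FPKM in tacrolimus replicates 1 to 4 and 267, 314, 287 and 304 FPKM in vehicle replicates 1 to 4. Every tacrolimus library was below every vehicle library. The log2 difference was −0.30 ± 0.11 (SE; limma adjusted p = 0.234), so it did not pass over all genes. Eef1g, part of the exchange factor for Eef1a, averaged 149 ± 8.61 FPKM in tacrolimus libraries and 178 ± 16.3 in vehicle libraries, also without overlap. In all, 3 of the 13 were lower without overlap and 0 higher, against 10.2% and 0.767% of all genes, and 1 was lower at an unadjusted p under 0.05.

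Among 30 initiation factors, 4 had a higher mean and 26 a lower one in the tacrolimus group, with a median of −0.19, and 2 of those lower had an unadjusted p under 0.05. Of those, Eif3f, a subunit of the eIF3 scaffold, averaged 48.6 ± 4.15 FPKM in tacrolimus libraries and 59.5 ± 3.49 in vehicle libraries. Eif5, which triggers GTP hydrolysis at the start codon, averaged 182 ± 34.9 FPKM in tacrolimus libraries and 234 ± 32.6 in vehicle libraries. Among 40 ribosome biogenesis factors, 9 had a higher mean and 31 a lower one, with a median of −0.19, and 4 of those lower had an unadjusted p under 0.05. Nolc1, a nucleolar phosphoprotein, averaged 17.8 ± 2.01 FPKM in tacrolimus libraries and 25.01 ± 5.43 in vehicle libraries. Tcof1, which supports transcription of ribosomal DNA, averaged 6.22 ± 1.05 FPKM in tacrolimus libraries and 8.91 ± 1.52 in vehicle libraries (SD, n = 4 each). No gene of these lists passed a limma adjusted p of 0.05, and 15.8% of all genes were lower at the unadjusted threshold, so the counts at that threshold stand no higher than the background. The list medians were near 0 under median-of-ratios and upper-quartile scaling, where the median of all genes was also near 0.

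Of 18 genes of the mTOR pathway and of TOP mRNA control, 3 had a higher mean in the tacrolimus group and 15 a lower one, with a median log2 difference of −0.29 and 3 of those lower at an unadjusted p under 0.05, a share close to the 15.8% of all genes. The list median was −0.091 under median-of-ratios and −0.084 under upper-quartile scaling. Rps6kb2 encodes S6K2, a kinase of ribosomal protein Rps6. It had 9.53, 8.14, 11.2 and 7.70 FPKM in tacrolimus replicates 1 to 4 and 21.0, 16.5, 14.7 and 14.9 FPKM in vehicle replicates 1 to 4, without overlap. The log2 difference was −0.81 ± 0.18 (SE; limma adjusted p = 0.179). Myc, a driver of ribosomal protein gene transcription, had 19.9, 21.0, 15.4 and 21.0 FPKM in tacrolimus replicates 1 to 4 and 23.4, 30.5, 28.7 and 29.0 FPKM in vehicle replicates 1 to 4. These groups did not overlap either, and the log2 difference was −0.51 ± 0.15 (SE; limma adjusted p = 0.195). Rps6 itself, the S6 kinase substrate, averaged 517 ± 78.6 FPKM in tacrolimus libraries and 560 ± 106 in vehicle libraries, a log2 difference of −0.11 ± 0.17 (SE). T cell and macrophage markers, given above, also averaged lower in the tacrolimus group, and their part in these values was not tested.

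Other gene families are set beside these values. All 78 mitochondrial ribosomal protein genes were tested, with 30 higher and 48 lower means in the tacrolimus group and a median log2 difference of −0.05. Mrpl37 was lower at an unadjusted p under 0.05, 1 of the 78 against 15.8% of all genes, with 33.8 ± 3.37 FPKM in tacrolimus libraries and 43.2 ± 7.05 in vehicle libraries. Mrps25 averaged 100.8 ± 7.70 FPKM in tacrolimus libraries and 85.8 ± 11.4 in vehicle libraries. Of 74 tested nuclear subunits of oxidative phosphorylation, 55 had a higher mean and 19 a lower one, with a median of 0.09. Cox7a1, a cytochrome oxidase subunit, had 16.2, 30.2, 17.7 and 15.4 FPKM in tacrolimus replicates 1 to 4 and 12.3, 12.0, 13.01 and 4.91 FPKM in vehicle replicates 1 to 4. The groups did not overlap, and the log2 difference was 0.88 ± 0.31 (SE; limma adjusted p = 0.221). Ndufb2, a complex I subunit, averaged 416 ± 61.9 FPKM in tacrolimus libraries and 322 ± 61.6 in vehicle libraries.

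Of the 91 genes, 30 hold a total of 58 annotated small nucleolar RNAs within their span on the same strand, up to 5 in Rpl4. These RNAs guide the modification of ribosomal RNA and are released from introns of their host. The 30 host genes, all tested, had a median log2 difference of −0.04, and the 56 tested genes without one had 0.05. Rpl4 averaged 374 ± 29.2 FPKM in tacrolimus libraries and 421 ± 60.5 in vehicle libraries (SD, n = 4 each). Host status was not tested apart from coding length.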

How the data were processed

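RNA of sorted cells from 8 mice was analysed in the groups and replicates that the sample titles give. The submitters' processing notes list DESeq2 1.24.0, RSEM 1.3.1, HISAT2 2.1.0 and the build GRCm38.p6, and do not say what each was used for. The deposited files hold 1 value per gene, and no header or label names the unit. The values were inferred to be FPKM, already scaled for length and library size by the authors. Depth was estimated from the steps between low values: 84.9 to 86.2% of them lay within 0.15 of a whole step.

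Symbols and coordinates are those of GENCODE M21 on GRCm38, and 260 identifiers had no symbol. The 13032 genes that reached 1 FPKM in 4 or more libraries were fitted on log2(FPKM + 1), which understates changes of low genes, with limma 3.58.1 (lmFit, eBayes with a trend) in R 4.3.3. Treatment was the only term, and p-values were Benjamini-Hochberg adjusted over all genes tested, at a threshold of 0.05. The design named this test for values that are not counts. Copies were searched with blastn 2.17.0. Coding length is that of the coding transcript with the longest coding part. The fit was tested on simulated data.

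The family, the gene lists and the tests were chosen with earlier results of these data known. Genes named are the stalk genes and Rpsa, the paralogs within the family, the 6 with the highest mean, the 6 highest and 6 lowest differences, Fau and Rack1, and the 2 smallest p-values of each list; results of 2 genes are not reported here. Rpl12, Rpl5, Rpl11, Rpl4, Rps6, Rpl21, Rps27rt, the copies and the paralog ratios were added after values were seen. Alternatives were other pseudocounts, filters, scalings, robust variance, library weights, the replicate number as a block, copies added, and each library left out. Of these, the scaling without genes over 5000 FPKM, the copies added and the ratios with a library left out were chosen after seeing the data. Python 3.11.15 and matplotlib 3.10.9 drew the plots.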

Additional observations from a re-analysis of the deposited data

Results flagged for a closer look

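In groups of 4 libraries, a library was singled out when its gap to the nearest of the others took a larger part of the group's range than Dixon's critical value allows, which chance does for about 1 in 20 groups. Among the 86 tested ribosomal protein genes this happened for 0 genes in the tacrolimus group, against 4.96% of all genes tested, and for 14 (16.3%) in the vehicle group, against 8.10% of all genes. The family's genes vary together across libraries, so these 14 are not separate events. Among the genes named by rule, 2 of these were ribosomal protein genes, both with vehicle replicate 4 far below the rest. Rplp1 stood at 1079.64 FPKM there, against 1534.91 to 1588.16 in the other vehicle libraries. Rps29 stood at 936.51 FPKM, against 1378.4 to 1409.45.

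Of the genes outside the family, Cox7a1 was far above the rest in tacrolimus replicate 2, at 30.19 FPKM against 15.35 to 17.67, and far below the rest in vehicle replicate 4, at 4.91 FPKM against 12.03 to 13.01. Vehicle replicate 2 stood far above the other vehicle libraries for Eef1g, at 202.16 FPKM against 168.49 to 171.51, and for Tcof1, at 11.17 FPKM against 7.86 to 8.32.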

How the results depend on the processing

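The count of 0 ribosomal protein genes past an adjusted p of 0.05 was the same under all 21 alternatives, where the smallest adjusted p of a family gene was 0.159 and at most 5 genes had an unadjusted p under 0.05. Scaling set the level of all medians: that of all genes was −0.19 as deposited, −0.0012 under median-of-ratios and 0.0046 under upper-quartile scaling. The family median was 0.25 under median-of-ratios and 0.26 under upper-quartile scaling, with 85 genes higher and 1 lower in the tacrolimus group under each. Under median-of-ratios scaling the list medians were 0.020 for biogenesis, 0.019 for elongation, 0.027 for initiation, 0.17 for mitochondrial ribosomal proteins and 0.31 for oxidative phosphorylation. Under upper-quartile scaling they were 0.026, 0.026, 0.034, 0.17 and 0.32 in the same order. The family median minus that of all genes was positive in all 21 alternatives, at 0.0797 to 0.325. The scalings could hardly change this difference. Robust variance and the replicate block, which keep the same estimates, left it at 0.226.

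Leaving out 1 library at a time gave family medians of −0.10 to 0.09, family shares that differed by −0.348 to 0.310 percentage points, and 0 to 1 genes called in all. The list medians ran from −0.37 to −0.16 for mTOR, −0.29 to −0.11 for biogenesis, −0.24 to −0.13 for elongation, −0.23 to −0.12 for initiation, −0.10 to 0.02 for mitochondrial ribosomal proteins and 0.01 to 0.20 for oxidative phosphorylation. The ratio of Rpl7l1 to Rpl7 differed by −0.55 to −0.22, Rpl22l1 to Rpl22 by −0.013 to 0.11, Rpl36al to Rpl36a by −0.14 to 0.11, and Rps27l to Rps27 by 0.17 to 0.48.

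No named gene crossed the threshold, but 59 of 805 single-gene differences changed sign, and the cause was not tested. Under median-of-ratios scaling these were Rpl10 0.056, Rpl3 0.027, Rpl7 0.20, Rplp0 0.0021, Rplp2 0.19, Rps13 0.012, Rps27 0.14, Rpsa 0.0084, Fau 0.19 and Rack1 0.14. Under upper-quartile scaling they were Rpl10 0.063, Rpl3 0.034, Rpl7 0.20, Rplp0 0.0090, Rplp2 0.19, Rps13 0.019, Rps27 0.15, Rpsa 0.015, Fau 0.20 and Rack1 0.15. Scaled to the sum without mitochondrial and family genes they were Rpl7 0.063, Rplp2 0.052, Rps27 0.0070, Fau 0.060 and Rack1 0.0087, and without genes over 5000 FPKM as well, Rpl7 0.11, Rplp2 0.10, Rps27 0.056, Fau 0.11 and Rack1 0.058. With library weights it was Rpl7 0.016. With each library left out, the ranges that crossed 0 were Rpl22 −0.074 to 0.17, Rpl22l1 −0.049 to 0.26, Rpl32 −0.062 to 0.16, Rpl36a −0.15 to 0.17, Rpl36al −0.051 to 0.18, Rpl39 −0.088 to 0.20, Rpl41 −0.12 to 0.11, Rpl7 −0.12 to 0.051, Rplp1 −0.066 to 0.14, Rplp2 −0.17 to 0.043, Rps12 −0.0056 to 0.31, Rps18 −0.10 to 0.089, Rps27 −0.28 to 0.086 and Fau −0.15 to 0.046.

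With the replicate number as a block, 121 genes of all tested passed, against 0 without it, and 0 of the family. Same-numbered libraries deviated together with correlations of 0.215, 0.277, −0.0197 and −0.0217. In the other group, the library of the same number was the closest for 4 of 8 libraries. These values do not decide whether the numbers pair the mice. No sample title states a pairing, and the main fit left the block out. Its count of 0 genes called over all genes rests on that choice.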
